A study of Mus musculus with 16 samples.

Results

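The 32 genes described here are inflammatory cytokines, chemokines, the chemokine receptor Ccr2, and genes of the NF-kB pathway, among 32187 genes in the tables of 2 mouse fat depots. They were chosen by name, and each symbol was matched to its Ensembl identifier in both tables. They comprise 7 cytokines (Tnf, Il1a, Il1b, Il1rn, Il6, Il10, Il18), 9 CC chemokines (Ccl2, Ccl3, Ccl4, Ccl5, Ccl6, Ccl7, Ccl8, Ccl9, Ccl11) and 5 CXC chemokines (Cxcl1, Cxcl2, Cxcl12, Cxcl14, Cxcl16). The others are 1 chemokine receptor (Ccr2), 3 NF-kB subunits (Nfkb1, Nfkb2, Relb), 3 feedback genes (Nfkbia, Nfkbiz, Tnfaip3) and 4 effectors (Saa3, Nlrp3, Icam1, Vcam1).

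Both depots, gonadal and subcutaneous, came from female mice without a working Lcn2 gene (strain B6.129P2-Lcn2tm1Aade/AkiJ, with a C57BL/6J background), and RNA was sequenced in 4 libraries for each vector in each depot. Lcn2 encodes lipocalin-2, a secreted carrier of iron-binding siderophores. An AAV8 vector was given by vein at the age of 8 weeks and encoded either lipocalin-2 (the LCN2 group) or green fluorescent protein (the GFP group), after which a HF/HS diet was fed until the age of 16 weeks. Both vectors used an adiponectin promoter, which is active in adipocytes, and carried a target of microRNA122 so that transcripts made in liver are degraded. All groups thus share the null allele, the vector backbone and the diet, and no mouse with its own Lcn2 was compared here. Libraries are named by vector and replicate number. The question was which of these genes differed between LCN2 and GFP libraries within each depot.

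NF-kB is a family of dimeric transcription factors held in the cytoplasm by inhibitors such as IkB-alpha, the product of Nfkbia. Signals from Toll-like receptors, TNF and interleukin-1 lead to loss of the inhibitor, and the dimers then switch on cytokines, chemokines, adhesion molecules and their own inhibitors, which closes a feedback loop. In fat, chemokines such as Ccl2 draw monocytes that carry Ccr2, and macrophages, adipocytes and stromal cells all produce members of the list. In bulk tissue, fewer cells of a type and less RNA per cell cannot be told apart.

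In gonadal fat none of the 26 members that could be tested passed an adjusted p of 0.05 with limma, which called 0.102% of all genes. With edgeR 0 of 26 were called (0.0358% of genes), and with DESeq2 Ccl2 and Saa3 were, 2 of 25 (4.29% of genes). The leading values were those of Saa3, Ccl2, Ccl7, Ccl11 and Ccr2, all with higher means under LCN2. In subcutaneous fat none of 29 tested members passed (0% of genes), and Ccl11 was the only one of these 29 whose groups did not overlap, as they did not for 7.08% of genes tested. Subcutaneous differences below 0 in Ccl5, Relb and Tnfaip3 were near 0 when the GFP libraries rich in lymph node transcripts were left out.

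Some facts of the whole series bear on these values. Gonadal values are read counts divided by a size factor per library (below, normalized counts), from 35173260 to 42890102 reads per library. Subcutaneous values are DESeq2's rlog values, which are on a log2 scale and carry no depth. Lcn2 itself was measured from the vector or from what remains of the null allele. It had 81.2 ± 18.7 normalized counts in gonadal GFP libraries and 344 ± 182 in LCN2 libraries (SD, n = 4), without overlap. Its difference in log2 of the normalized count plus 1 was 1.93 ± 0.37 (SE; limma adjusted p = 0.108; DESeq2 adjusted p = 2.34e-05). In subcutaneous fat it was 8.17 ± 0.28 against 9.12 ± 0.62 rlog units (SD, n = 4), again without overlap. The difference there was 0.95 ± 0.29 (SE; limma adjusted p = 0.308). The delivered gene thus did not pass the limma test in either depot. Adipocyte markers were the highest of the 12 marker lists in every library of both depots. Gonadal LCN2 4 stood apart by skeletal muscle transcripts, with a summed 56536 normalized counts for 8 muscle markers against 1186 to 6964 in the other 7 libraries. Subcutaneous GFP 1 and GFP 2 stood apart by B cell and lymph node markers, with means of 10.79 and 9.93 rlog units. GFP 3, GFP 4, LCN2 1, LCN2 2 and LCN2 3 had 6.47 to 6.97, and LCN2 4 lay between at 8.96. Hepatocyte markers averaged 9.29 rlog units in subcutaneous GFP 2, against 6.57 to 7.67 in the other 7 libraries.

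The gonadal members spanned a wide range of levels. Per kilobase of exon, and averaged over the 8 libraries, the highest mean level was that of Ccl6 at 1643 normalized counts per kilobase, followed by Nfkbia at 1456, Ccl11 at 1422, Cxcl12 at 972, Ccl9 at 531 and Ccl8 at 511. The lowest were Il10 at 4.82, Cxcl2 at 3.19, Il1a at 2.59 and Il6 at 1.46 normalized counts per kilobase. Ccl6, Nfkbia and Ccl11 are neighbours in this order whose ranges overlap between libraries. Il18, at 88.4 normalized counts per kilobase, was the highest cytokine and close to Ccl2 at 80.9 and Ccl7 at 101, while Tnf, at 9.21, was far below them. Of the gonadal members 6 had a mean under 10 normalized counts (Il1a, Il1b, Il6, Il10, Ccl4, Cxcl2) and were not tested, which leaves 26. Genes reached the test through their mean over all 8 libraries.

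**Figure D1:**
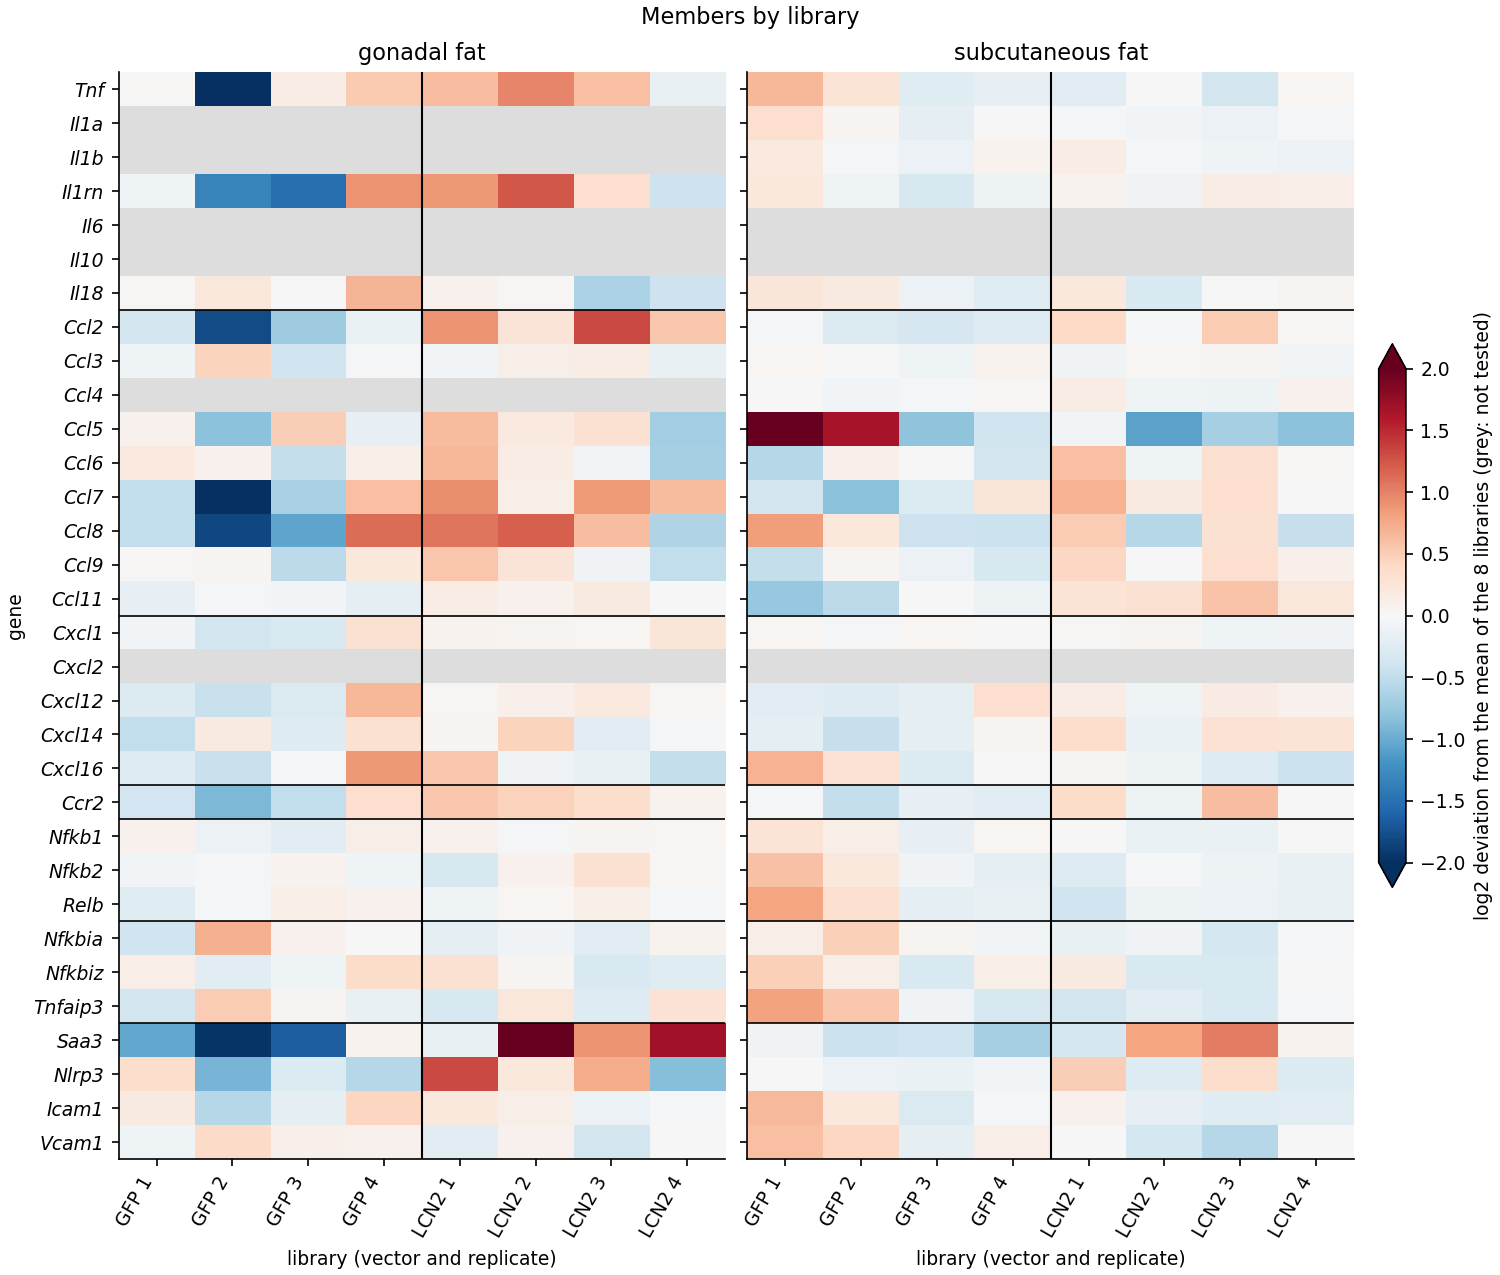
Each cell is the log2 deviation of a gene (rows, grouped by role) from its mean over the 8 libraries of a depot (columns, vector and replicate number); gonadal values are log2 of the normalized count plus 1 and subcutaneous values are rlog. Grey rows were not tested, and colours saturate at 2 log2 units. Gonadal GFP 2 is the lowest library for Tnf, Ccl2, Ccl7, Ccl8, Ccr2 and Saa3, and subcutaneous GFP 1 and GFP 2 are the highest for Ccl5, Relb and Tnfaip3.

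The cytokines of gonadal fat were low and variable. Tnf, the archetypal NF-kB inducer, had 12.7, 1.02, 13.8 and 18.2 normalized counts in GFP 1 to GFP 4 and 19.6, 25.2, 19.3 and 11 in LCN2 1 to LCN2 4. The groups overlapped, with GFP 2 lowest, and the log2 difference was 1.02 ± 0.68 (SE; limma adjusted p = 0.539), on the scale of log2 of the normalized count plus 1. That value rested on GFP 2, at 1 read, and without it the difference was 0.28 ± 0.33 (SE). Il1rn, the secreted antagonist of the interleukin-1 receptor, had 32.7, 13.2, 11.7 and 66.3 normalized counts under GFP and 64.9, 83.7, 44.2 and 26.1 under LCN2. Its log2 difference was 1.02 ± 0.57 (SE; limma adjusted p = 0.456), and GFP 4 lay above 3 of the 4 LCN2 libraries.

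Il18, an inflammasome-processed cytokine, was the only one of the 3 tested cytokines with a lower mean under LCN2. It had 89.7, 103, 88.0 and 143 normalized counts under GFP and 93.3, 89.8, 56.7 and 66.2 under LCN2, a log2 difference of -0.46 ± 0.22 (SE; limma adjusted p = 0.373). LCN2 1 and LCN2 2 lay within the GFP range.

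The remaining cytokines were at a handful of reads. Il1b, which needs both NF-kB and the inflammasome for release, had 9.5, 1.02, 7.42 and 7.46 normalized counts under GFP and 9.78, 13.1, 24.9 and 5.01 under LCN2. Il1a, its cell-associated relative, had 1.06 to 6.63 under GFP and 1.13 to 9.78 under LCN2. Il10, an anti-inflammatory cytokine, had 0 to 10.8 under GFP and 4.01 to 12.4 under LCN2. Il6 had 5.28, 0, 0 and 5.80 normalized counts under GFP and 7.11, 1.01, 9.07 and 0 under LCN2. A library at 0 reads allows a true level of up to 3 reads, so a difference of a few reads in Il6 was not detectable at this depth. Every one of these 4 genes had overlapping groups.

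All 8 CC chemokines tested in gonadal fat had a difference above 0, with a median of 0.22, and those of Ccl2, Ccl7 and Ccl8 were the largest among them. Ccl2, the main monocyte attractant, had 59.1, 21.4, 46.7 and 69.6 normalized counts in GFP 1 to GFP 4 and 143, 91.8, 194 and 111 in LCN2 1 to LCN2 4. Every LCN2 library lay above every GFP library, with means of 49.2 ± 20.8 and 135 ± 44.6 (SD, n = 4). The log2 difference was 1.5 ± 0.37 (SE; limma adjusted p = 0.164). With DESeq2 on the recovered reads it was 1.45 ± 0.38 (SE; DESeq2 adjusted p = 0.00866), past the threshold.

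Ccl7, which also binds Ccr2, lies next to Ccl2 on chromosome 11. It had 48.5, 16.3, 43.5 and 104 normalized counts under GFP and 131, 74.6, 125 and 106 under LCN2. Only GFP 4 reached into the LCN2 range, so without that library the groups did not overlap, as they did not for 17.9% of all genes in that fit. The log2 difference was 1.27 ± 0.48 (SE; limma adjusted p = 0.268) over all 8 libraries, 1.68 without GFP 4 and 0.81 without GFP 2, the lowest library.

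Ccl11, eotaxin, is an eosinophil attractant and was the most even of the chemokines. It had 1364, 1489, 1476 and 1357 normalized counts under GFP and 1707, 1624, 1743 and 1548 under LCN2, without overlap. The means were 1422 ± 70.7 and 1655 ± 87.3 (SD, n = 4), and the log2 difference was 0.22 ± 0.07 (SE; limma adjusted p = 0.225). The difference in Ccl11 was thus small beside that in Ccl2, but the spread within each group was small as well.

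Ccl8 had 145, 57.0, 97.6 and 443 normalized counts under GFP and 430.2, 471, 313 and 134 under LCN2, with a log2 difference of 1.14 ± 0.62 (SE) and wide overlap. It was 1.70 without GFP 4 and 0.72 without GFP 2. Ccl5, made by T cells and macrophages, had 131 ± 47.3 normalized counts under GFP and 153 ± 52.9 under LCN2 (SD, n = 4), a log2 difference of 0.21 ± 0.34 (SE). Ccl6 and Ccl9, abundant products of macrophages, were level between the vectors within their error. Ccl6 had 2853 ± 541 normalized counts against 3046 ± 1127 (SD, n = 4; log2 difference 0.04 ± 0.26, SE). Ccl9 had 1536 ± 314 against 1697 ± 508 (SD, n = 4; log2 difference 0.12 ± 0.23, SE). Ccl3 had 10.3 ± 2.86 normalized counts under GFP and 10.3 ± 1.10 under LCN2 (SD, n = 4), with a log2 difference of 0.03 ± 0.29 (SE). Ccl4, under the level filter, had 2.03 to 9.5 under GFP and 5.67 to 14.1 under LCN2. The direction for Ccl3, Ccl5, Ccl6 and Ccl9 was not stable: leaving out 1 or more libraries turned it, as in the case of LCN2 1 for Ccl6 (-0.17) and Ccl9 (-0.05).

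All 9 CC chemokine genes lie on chromosome 11 (GRCm38), in a pair of groups. Ccl2 (82035571 to 82037453), Ccl7 (82045712 to 82047525), Ccl11 (82057823 to 82062955) and Ccl8 (82115185 to 82116799) lie in this order on the plus strand, with Ccl12, which is not among the 32 genes, between Ccl11 and Ccl8 (82101845 to 82103400). The second group is Ccl5 (83525778 to 83530518), Ccl9 (83572919 to 83578636), Ccl6 (83587882 to 83593087), Ccl3 (83647844 to 83649355) and Ccl4 (83662584 to 83664683). The gonadal log2 differences of the first group were 1.5, 1.27, 0.22 and 1.14 in that order, and that of Ccl12 was 0.78 ± 0.52 (SE; limma adjusted p = 0.542). Those of the tested genes of the second group were 0.21, 0.12, 0.04 and 0.03. Neighbouring CC chemokines resemble each other in sequence, so reads that match more than 1 of them could have been split between genes. The positions are a description, and no test of position was made.

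Ccr2, the receptor for Ccl2 and Ccl7 on monocytes (chromosome 9, 124101950 to 124113557, plus strand), had 1174, 820.0, 1079.7 and 1935 normalized counts under GFP. Under LCN2 it had 2215, 2099.7, 1957 and 1608. The means were 1252 ± 479 and 1969.8 ± 263 (SD, n = 4), and the log2 difference was 0.72 ± 0.23 (SE; limma adjusted p = 0.221). GFP 4 lay above LCN2 4 and was the only GFP library to do so. Without GFP 4 the groups therefore did not overlap, as they did not for 17.9% of all genes in that fit, and the log2 difference was 0.95.

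Markers of other cell types differed between the gonadal groups to unequal extents. The summed level of 12 macrophage markers was 30447 to 40091 normalized counts under GFP and 24886 to 43668 under LCN2, with 6 of 12 differences above 0 and a median log2 difference of -0.02. Markers of lipid-associated macrophages were above 0 in 5 of 6 (median 0.13), and those of fibroblasts and progenitors in 5 of 8 (median 0.27). For T and NK cells the sums were 239 to 629 and 359 to 863, with 8 of 10 differences above 0. For neutrophils, 7 of the 8 markers in the table were under the level filter, and the sums were 50.6 to 94.6 and 35.1 to 55.1. Endothelial markers were above 0 in 8 of 8, with a median log2 difference of 0.43 and sums of 20249 to 41750 under GFP and 41325 to 46859 under LCN2. Mesothelial markers were below 0 in 10 of 10, with a median of -1.23 and sums of 7326 to 15171 under GFP and 3185 to 7878 under LCN2. Gonadal GFP 2, the lowest library for Ccl2, Ccl7, Ccl8 and Ccr2, also had the lowest endothelial sum and the highest adipocyte sum (1199800 normalized counts, against 707107 to 984855 in the other 7 libraries). Skeletal muscle markers were above 0 in 8 of 8 (median 1.78), with LCN2 4 highest. Hepatocyte markers were above 0 in 8 of 9 (median 1.36), with sums of 46088 to 204427 under GFP and 28883 to 93426 under LCN2. The sums thus lay lower under LCN2, and the 2 measures ranked libraries differently. GFP 2 had the highest sum but the lowest median deviation over the list (-2.13 log2 units). The part of the macrophage, fibroblast, endothelial, mesothelial and adipocyte levels in the chemokine differences was not tested. Without the 3 libraries highest in hepatocyte markers by the median of the list (GFP 1, LCN2 1 and LCN2 2), the log2 difference of Ccl2 was 1.81 ± 0.53 (SE). It was 1.42 ± 0.72 for Ccl7, 0.57 ± 0.36 for Ccr2, 0.19 ± 0.13 for Ccl11 and 2.47 ± 0.62 for Saa3 (SE). Those of Ccl7, Ccr2 and Ccl11 were then no longer under an unadjusted p of 0.05. Without GFP 2 the log2 differences were 1.16 for Ccl2, 0.54 for Ccr2 and 2.02 for Saa3.

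**Figure D2:**
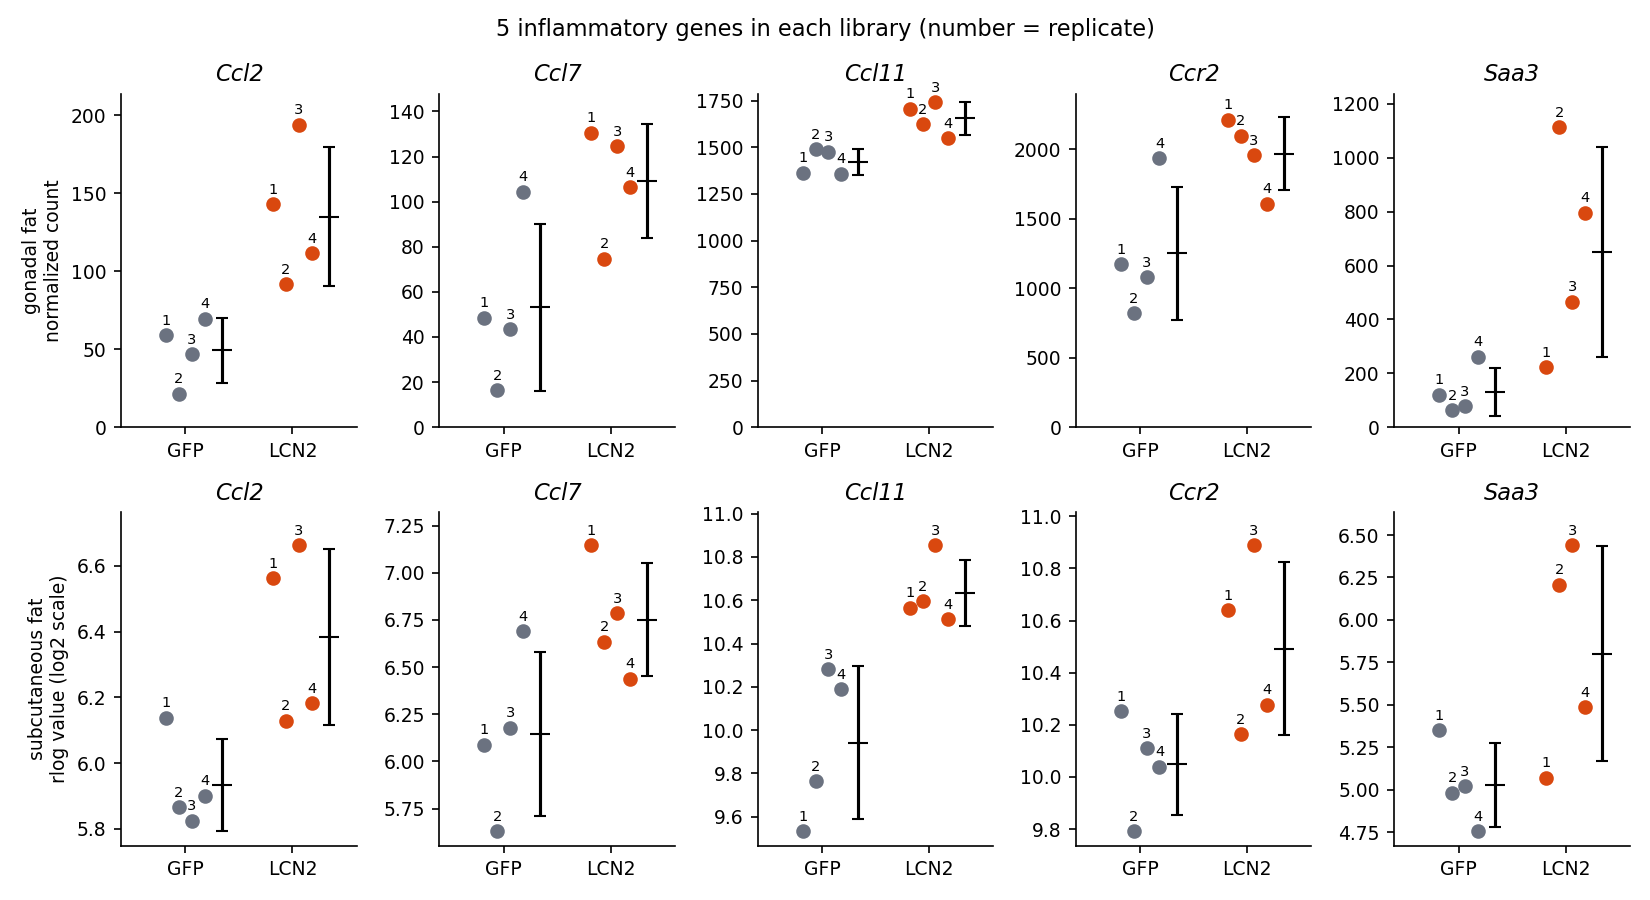
Points are single libraries (numbered by replicate) for Ccl2, Ccl7, Ccl11, Ccr2 and Saa3, with the mean and SD of each group (n = 4) at the side; the upper row is gonadal fat in normalized counts from 0 and the lower row is subcutaneous fat in rlog units, whose axes do not start at 0. In gonadal fat Ccl2 and Ccl11 do not overlap between the vectors and GFP 4 reaches into the LCN2 range for Ccl7, Ccr2 and Saa3. In subcutaneous fat Ccl11 is the only one of the 5 without overlap.

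Of the CXC chemokines tested in gonadal fat, 3 of 4 had a difference above 0, with a median of 0.15 and each within 1 SE of 0 over all 8 libraries. Cxcl12, a stromal chemokine that retains haematopoietic cells, had 6400.0, 5678, 6322 and 12275 normalized counts under GFP and 7866, 8264, 8866 and 7909 under LCN2, a log2 difference of 0.17 ± 0.22 (SE). GFP 4 was far above the other GFP libraries, which all lay below all LCN2 libraries. Without GFP 4 the log2 difference was 0.42 ± 0.08 (SE; limma adjusted p = 0.0732). Leaving out the only library that made the groups overlap parts them by choice, and 17.9% of all genes did not overlap in that fit. Cxcl1, a neutrophil attractant, had 24.3, 19.3, 20.2 and 31.5 under GFP and 26.7, 26.2, 26.1 and 30.1 under LCN2, a log2 difference of 0.21 ± 0.22 (SE). Its near relative Cxcl2 was under the level filter, with 2.49 to 8.44 normalized counts under GFP and 4.01 to 14.7 under LCN2. Cxcl14 had 321 ± 81.4 under GFP and 348 ± 68.8 under LCN2 (SD, n = 4; log2 difference 0.13 ± 0.20, SE). Cxcl16, a membrane-bound chemokine and scavenger receptor, had 599.9 ± 275 and 554 ± 174 (SD, n = 4; log2 difference -0.07 ± 0.30, SE). In the annotation 18.3% of its exonic bases overlap Zmynd15 on the opposite strand. The library kit keeps strand, but how strand was used in counting is not given in the sources used.

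The NF-kB subunits were close to level in gonadal fat. Nfkb1, which encodes p50 through its precursor p105, had 2015 ± 226 normalized counts under GFP and 2106 ± 68.4 under LCN2 (SD, n = 4; log2 difference 0.07 ± 0.09, SE). Nfkb2, the precursor of p52, had 939.8 ± 42.4 and 984 ± 172 (SD, n = 4; log2 difference 0.05 ± 0.13, SE). Relb, the partner of p52, had 567 ± 63.4 and 572 ± 35.0 (SD, n = 4; log2 difference 0.02 ± 0.10, SE). The estimates of all 3 thus lay within 1 SE of 0.

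The feedback genes, which NF-kB induces and which restrain it, had differences below 0 in 3 of 3, with a median of -0.09 and none past the test. Nfkbia had 1733, 3744, 2417 and 2308 normalized counts under GFP and 1994, 2171, 1974 and 2408 under LCN2, a log2 difference of -0.20 ± 0.20 (SE). Its highest value was in GFP 2 and its lowest in GFP 1, and without GFP 2 the difference was 0.00 to 2 decimals. Nfkbiz, an inducible nuclear IkB protein, had 435 ± 78.6 and 410.0 ± 82.2 (SD, n = 4; log2 difference -0.09 ± 0.17, SE). Tnfaip3, the ubiquitin-editing enzyme A20, had 469 ± 129 and 457 ± 101 (SD, n = 4; log2 difference -0.02 ± 0.21, SE). The sign for Nfkbiz and Tnfaip3 turned when single libraries were left out.

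The promoters of members were searched for a narrow form of the kappaB motif, the site that NF-kB dimers bind. The letters searched were GGGA, any 1 base and TTTCC, on both strands in the 250 bases before each RefSeq start site (GRCm38.p6). It was found in 117 of 32851 windows, or 0.356%, and in 112 of 27025 genes, or 0.414%. Of the 21 members with a promoter in the table, 5 (23.8%) held it, and the other 11 members, Ccl2, Ccl7 and Ccl11 among them, had none there to search. A searched member without a match may hold another form of the motif. The members were chosen by name as inflammatory and NF-kB genes, so these shares say nothing about LCN2. The 5 matches are shown because they link the cytokine, chemokine, subunit and inhibitor groups through the same letters. Capitals mark the motif, each line runs 5′ to 3′ along the gene's strand, and the coordinates include 20 bases on each side of the motif where the window allows.
Il6, chr5:30013050-30013099, plus strand: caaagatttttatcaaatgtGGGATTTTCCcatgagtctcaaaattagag
Cxcl1, chr5:90891154-90891203, plus strand: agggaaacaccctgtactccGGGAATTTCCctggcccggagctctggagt
Cxcl2, chr5:90903782-90903831, plus strand: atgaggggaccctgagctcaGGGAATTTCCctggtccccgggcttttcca
Nfkbia, chr12:55492648-55492696, minus strand: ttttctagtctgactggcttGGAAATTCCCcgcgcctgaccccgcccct
Nfkb2, chr19:46305685-46305734, plus strand: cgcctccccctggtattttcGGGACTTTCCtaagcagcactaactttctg
The motif begins 44 bases before the start site in Il6, 71 in Cxcl1, 97 in Cxcl2, 29 in Nfkbia and 225 in Nfkb2, and in Nfkbia it reads on the opposite strand. The Nfkb2 window lies inside the annotated gene (46304320 to 46312385), before an internal start site, while the other windows lie outside theirs. Cxcl1 and Cxcl2 carry the same 10 letters. Of the 5 genes, the 3 that were tested in gonadal fat had log2 differences of 0.21 (Cxcl1), -0.20 (Nfkbia) and 0.05 (Nfkb2), none past the test. A match describes the sequence and does not show that the factor binds there.

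Among the effectors, Saa3 had the largest difference of any member in gonadal fat. Saa3 encodes an acute-phase serum amyloid A made in adipose tissue and macrophages (chromosome 7, 46711998 to 46715700, minus strand). It had 120.3, 63.1, 78.5 and 261 normalized counts in GFP 1 to GFP 4 and 223, 1114, 466 and 796 in LCN2 1 to LCN2 4. GFP 4 lay above LCN2 1, and the other LCN2 libraries lay above all GFP libraries. The means were 131 ± 90.2 and 650.0 ± 389 (SD, n = 4), and the log2 difference was 2.29 ± 0.56 (SE; limma adjusted p = 0.158). With DESeq2 it was 2.31 ± 0.53 (SE; DESeq2 adjusted p = 0.00157), past the threshold. Saa3 belongs to a family of similar genes, and reads shared with its relatives could have been split between them. The leave-one-out values of Saa3 ran from 1.95 without LCN2 2, its highest library, to 2.73 without LCN2 1, its lowest LCN2 library.

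Nlrp3, the sensor of an inflammasome, had 65.4, 26.5, 42.4 and 34 normalized counts under GFP and 129, 59.5, 86.2 and 28.1 under LCN2. Its log2 difference was 0.71 ± 0.46 (SE; limma adjusted p = 0.519), which was 0.39 without LCN2 1. LCN2 4, the library with muscle transcripts, was the second lowest for Nlrp3, and without it the difference was 1.11. The adhesion molecules that bind leukocytes on endothelium did not follow the chemokines. Icam1 had 646 ± 189 and 667 ± 68.5 normalized counts (SD, n = 4; log2 difference 0.09 ± 0.20, SE). Vcam1 had 1213, 1679, 1387 and 1373 under GFP and 1107, 1379, 1007 and 1304 under LCN2, a log2 difference of -0.24 ± 0.13 (SE; limma adjusted p = 0.444). The endothelial marker list was above 0 as a whole while Vcam1 was below 0.

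Against the background of all genes, the gonadal counts of members were as follows. At an adjusted p of 0.05 limma called 20 of 19536 genes, or 0.102%, and 0 of 26 members. At an unadjusted p of 0.05 it counted 14.8% of genes and 5 of 26 members (19.2%), namely Ccl2, Ccl7, Ccl11, Ccr2 and Saa3. All 5 had higher means under LCN2, where the background was 7.44%. Groups did not overlap for 9.11% of genes and for 2 of 26 members (7.69%), Ccl2 and Ccl11, both higher, where the background was 4.4%; these shares are near the background. Without GFP 4 the second count was 7 of 26 (Ccl2, Ccl7, Ccl11, Cxcl1, Cxcl12, Ccr2 and Saa3), against a background of 17.9%. DESeq2 called 4.29% of the genes it tested and 2 of 25 members, and edgeR 0.0358% and 0 of 26. Of the 26 members 20 (76.9%) had a difference above 0, against 52% of all genes, and the median log2 difference was 0.12 for members and 0.01 for all genes. Without the 3 libraries highest in hepatocyte markers by the median of the list, 14 of 26 had a difference above 0, with medians of 0.08 for members and 0.02 for all genes. When single libraries were left out it was 17 to 22 of 26. The fit without 3 libraries also had fewer samples, and the cause of its lower count was not tested.

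The other genes of the pathway were followed by lists, and no gene of any list passed the limma test in gonadal fat. Differences above 0 were found for 7 of 12 cytokine receptors (median 0.06), 8 of 11 chemokine receptors (0.23) and 15 of 22 NF-kB signalling genes (0.06). They were found for 7 of 14 feedback and inflammasome genes (0.08) and 8 of 13 further chemokines (0.02). The smallest p-values belonged to Bcl3, Traf3, Nos2 and Rel, in all of which the groups did not overlap, as they did not for 9.11% of all genes tested. Bcl3, an atypical IkB protein that binds p50 and p52 dimers in the nucleus, had 157 ± 41.5 normalized counts under GFP and 265 ± 31.3 under LCN2 (SD, n = 4). Its log2 difference was 0.78 ± 0.19 (SE; limma adjusted p = 0.158; DESeq2 adjusted p = 0.0168), and 6.5% of its exonic bases overlap Gm16175 on the opposite strand.

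Traf3, an adaptor that restrains the non-canonical arm of NF-kB, had 787 ± 58.6 normalized counts under GFP and 1086 ± 156 under LCN2 (SD, n = 4), a log2 difference of 0.46 ± 0.12 (SE; limma adjusted p = 0.173; DESeq2 adjusted p = 0.0237). Nos2, the inducible nitric oxide synthase, had 213, 124, 223 and 241 under GFP and 244, 396, 507 and 353 under LCN2. Its log2 difference was 0.90 ± 0.27 (SE; limma adjusted p = 0.196; DESeq2 adjusted p = 0.0352), with LCN2 1 just above GFP 4. Rel, the c-Rel subunit, had 272 ± 69.5 and 392 ± 41.8 (SD, n = 4), a log2 difference of 0.55 ± 0.18 (SE; limma adjusted p = 0.222). Bcl3, Traf3 and Nos2 were thus past the threshold with DESeq2 only, which called 4.29% of all genes it tested. They were picked by their small p-values in the lists, so their calls are no result about the pathway.

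**Figure D3:**
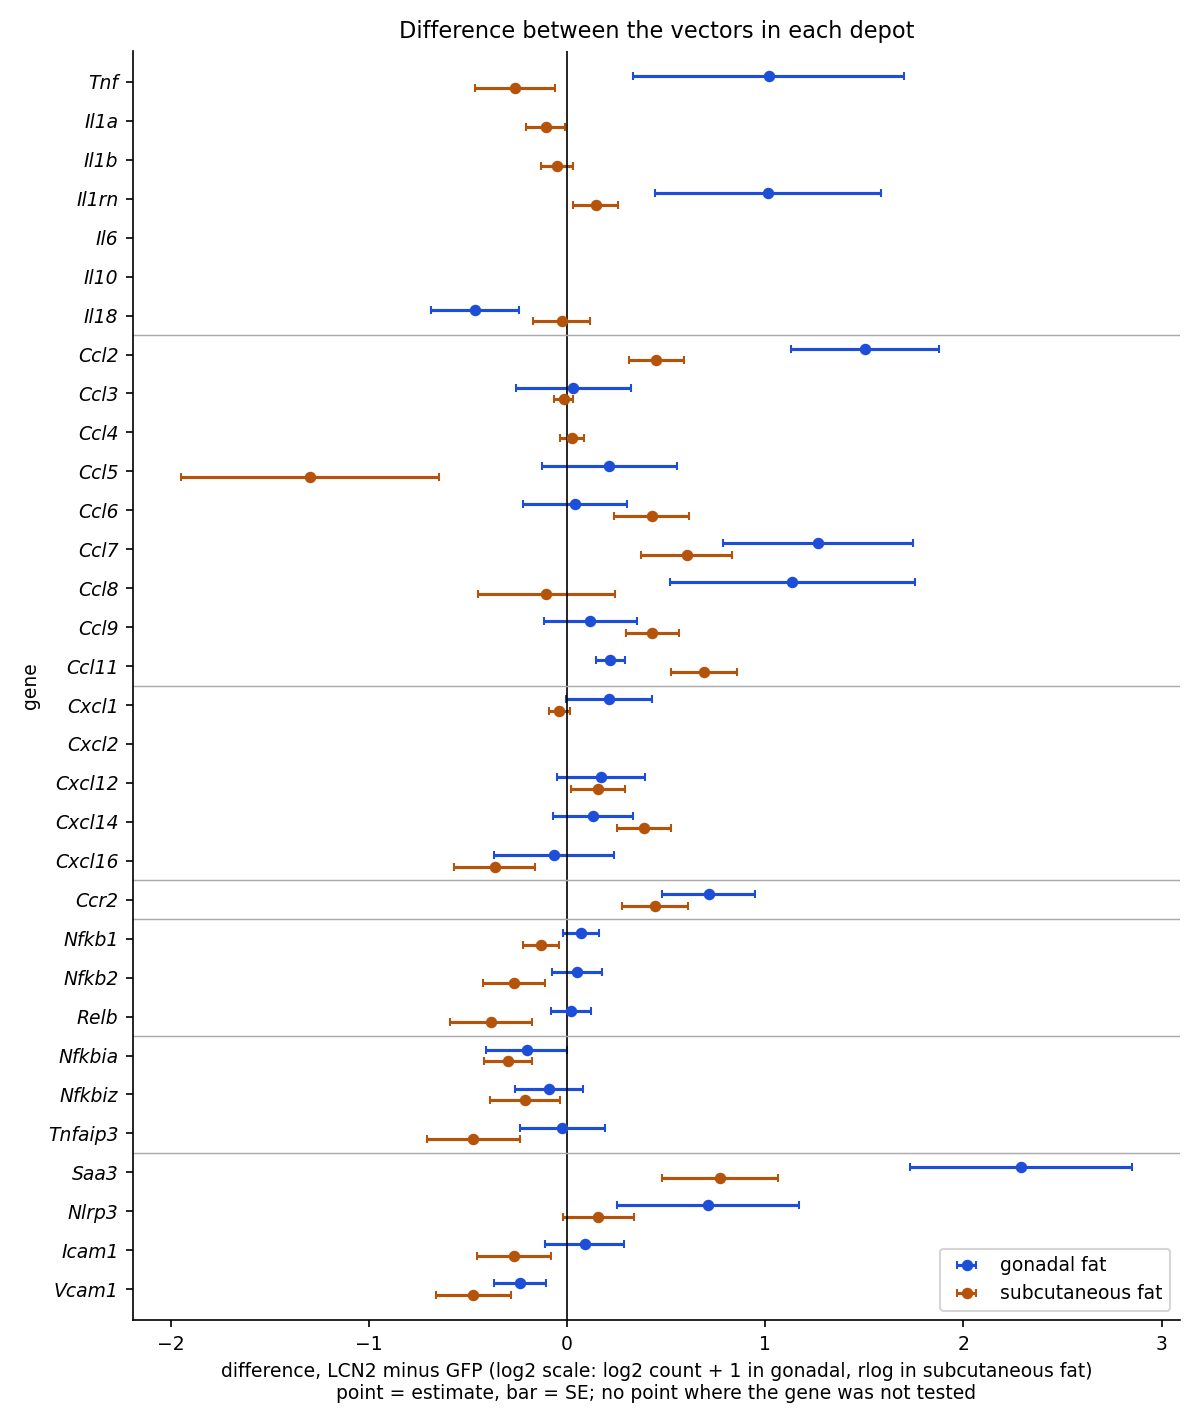
For each gene (rows, grouped by role) the point is the difference of LCN2 minus GFP on a log2 scale and the bar its SE, for gonadal (blue) and subcutaneous fat (orange), which were fitted separately. No point is drawn where the gene was not tested. Ccl2, Ccl7, Ccl11, Ccr2 and Saa3 lie right of 0 in both depots, while Ccl5 and the NF-kB subunits lie left of 0 in subcutaneous fat only.

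In subcutaneous fat all values are rlog units, in which differences of low genes are shrunken, so their size cannot be set against the gonadal ones. Of the 32 members, Il6, Il10 and Cxcl2 had a mean under 3 rlog units and were not tested, which leaves 29. Il6 was 1.43 to 1.53 under GFP and 1.45 to 1.53 under LCN2, Il10 2.53 to 2.60 and 2.53 to 2.76, and Cxcl2 2.14 to 2.17 and 2.17 to 2.23, the last without overlap. The tested cytokines were also low: Tnf had means of 5.64 ± 0.42 and 5.37 ± 0.19, Il1a 3.60 ± 0.22 and 3.49 ± 0.04, and Il1b 3.77 ± 0.14 and 3.72 ± 0.12 rlog units (SD, n = 4). Il1rn had 5.31 ± 0.22 and 5.45 ± 0.10, and Il18 6.43 ± 0.24 and 6.41 ± 0.21 (SD, n = 4). Their differences were -0.26 ± 0.20, -0.11 ± 0.10, -0.05 ± 0.08, 0.14 ± 0.11 and -0.03 ± 0.15 (SE) in that order. None of the 5 cytokines passed the test, and their groups overlapped.

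Ccl11 led the subcutaneous members. It had 9.53, 9.76, 10.28 and 10.19 rlog units in GFP 1 to GFP 4 and 10.57, 10.59, 10.85 and 10.51 in LCN2 1 to LCN2 4, without overlap. The difference was 0.69 ± 0.17 (SE; limma adjusted p = 0.308). GFP 1 and GFP 2, the libraries rich in lymph node transcripts, were the lowest, and without them the difference was 0.40 ± 0.10 (SE).

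Ccl2 had 6.14, 5.87, 5.83 and 5.90 rlog units under GFP and 6.56, 6.13, 6.66 and 6.18 under LCN2, a difference of 0.45 ± 0.14 (SE; limma adjusted p = 0.308). Only GFP 1 reached the LCN2 range, by less than 0.05 rlog units above LCN2 2. Ccl9 had 9.80, 10.33, 10.15 and 9.95 under GFP and 10.69, 10.28, 10.61 and 10.38 under LCN2, a difference of 0.43 ± 0.13 (SE; limma adjusted p = 0.308). GFP 2 lay above LCN2 2 by less than 0.05 units. Without GFP 1 and GFP 2 the differences were 0.52 ± 0.17 for Ccl2 and 0.44 ± 0.13 for Ccl9 (SE), so both were about as large without those libraries.

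Ccl7 had 6.09, 5.63, 6.18 and 6.69 rlog units under GFP and 7.15, 6.63, 6.79 and 6.44 under LCN2, with a difference of 0.60 ± 0.23 (SE) and overlap through GFP 4. Leaving out GFP 1 and GFP 2 gave 0.32 ± 0.22 (SE). Ccl6 had 10.85 ± 0.31 and 11.28 ± 0.31 rlog units (SD, n = 4), a difference of 0.43 ± 0.19 (SE). Ccl8 had 7.61 ± 0.60 and 7.50 ± 0.54 (SD, n = 4), a difference of -0.11 ± 0.35 (SE). For Ccl8 it was 0.36 ± 0.32 (SE) without GFP 1 and GFP 2. Without LCN2 4 as well, a setting chosen after the data were seen, it was 0.50 ± 0.32 (SE). Ccl3 had 3.29 ± 0.07 and 3.27 ± 0.06, and Ccl4 3.11 ± 0.04 and 3.13 ± 0.13 (SD, n = 4), with differences of -0.02 ± 0.05 and 0.03 ± 0.06 (SE). Of the 9 CC chemokines 6 had a difference above 0, with a median of 0.43 and none past the test.

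Ccl5 had the difference farthest below 0 of any member, and it rested on 2 libraries. It had 10.16, 9.66, 7.20 and 7.61 rlog units under GFP and 7.96, 6.94, 7.35 and 7.19 under LCN2, a difference of -1.30 ± 0.65 (SE; limma adjusted p = 0.400). GFP 1 and GFP 2 stood more than 1.5 units above every other library. In the same 2 libraries the mean of 10 T and NK cell markers was 8.04 and 7.81 rlog units, against 5.51 to 6.12 in the other 6. Without them the Ccl5 difference was -0.04 ± 0.28 (SE).

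Ccr2 had 10.25, 9.79, 10.11 and 10.04 rlog units under GFP and 10.64, 10.16, 10.89 and 10.28 under LCN2, a difference of 0.44 ± 0.17 (SE; limma adjusted p = 0.326). GFP 1 lay above LCN2 2, and without GFP 1 and GFP 2 the difference was 0.42 ± 0.20 (SE). Macrophage markers were 10.18 to 10.56 rlog units on average under GFP and 10.20 to 10.76 under LCN2, with 10 of 12 differences above 0 and a median of 0.13. Markers of lipid-associated macrophages were above 0 in 6 of 6 (median 0.19), with means of 9.38 to 9.58 under GFP and 9.65 to 9.81 under LCN2. Those of fibroblasts and progenitors were above 0 in 6 of 8 (median 0.25). The part of these markers in the Ccr2 and chemokine values was not tested. Endothelial markers were above 0 in 8 of 8, with a median of 0.46 and means of 10.80 to 11.57 and 11.49 to 11.69 rlog units. Among the 8 neutrophil markers measured, 5 were under the level filter.

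Of the CXC chemokines, Cxcl14 had 10.68, 10.40, 10.67 and 10.91 rlog units under GFP and 11.21, 10.72, 11.14 and 11.14 under LCN2, a difference of 0.39 ± 0.14 (SE; limma adjusted p = 0.313). LCN2 2 lay below GFP 4, and the other LCN2 libraries lay above all GFP libraries. Leaving out GFP 1 and GFP 2 gave a difference of 0.26. Cxcl12 had 12.58 ± 0.28 and 12.74 ± 0.11, Cxcl1 4.99 ± 0.03 and 4.95 ± 0.07, and Cxcl16 9.20 ± 0.42 and 8.83 ± 0.21 rlog units (SD, n = 4). Their differences were 0.16 ± 0.14, -0.04 ± 0.05 and -0.37 ± 0.20 (SE), and that of Cxcl16 was -0.05 without GFP 1 and GFP 2.

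The NF-kB subunits and feedback genes all had subcutaneous differences below 0, with medians of -0.27 and -0.30, and none passed the test. Relb had 10.21, 9.75, 9.23 and 9.28 rlog units under GFP and 9.04, 9.32, 9.30 and 9.27 under LCN2, a difference of -0.38 ± 0.21 (SE). Tnfaip3 had 9.89, 9.63, 9.02 and 8.76 under GFP and 8.72, 8.87, 8.78 and 9.04 under LCN2, a difference of -0.47 ± 0.23 (SE). In both genes GFP 1 and GFP 2 were the highest libraries and GFP 3 and GFP 4 lay within or beside the LCN2 range. Without GFP 1 and GFP 2 the differences were -0.02 ± 0.10 for Relb and -0.04 ± 0.12 for Tnfaip3 (SE).

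Nfkb1 had 11.27 ± 0.19 and 11.14 ± 0.07, and Nfkb2 10.32 ± 0.34 and 10.06 ± 0.10 rlog units (SD, n = 4), with differences of -0.13 ± 0.09 and -0.27 ± 0.16 (SE). Those of Nfkb1 and Nfkb2 were 0.00 and -0.01 without GFP 1 and GFP 2. Nfkbiz had 9.07 ± 0.32 and 8.86 ± 0.24 (SD, n = 4), a difference of -0.21 ± 0.18 (SE). Nfkbia had 11.49, 11.83, 11.41 and 11.30 under GFP and 11.20, 11.29, 11.01 and 11.33 under LCN2, a difference of -0.30 ± 0.12 (SE; limma adjusted p = 0.337), and GFP 4 lay below LCN2 4. It was -0.14 ± 0.10 (SE) without GFP 1 and GFP 2. The part of the B cell and lymph node markers in the NF-kB values was not tested. Leaving out GFP 1 and GFP 2 removes everything that sets these libraries apart, which in GFP 2 includes high hepatocyte markers.

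**Figure D4:**
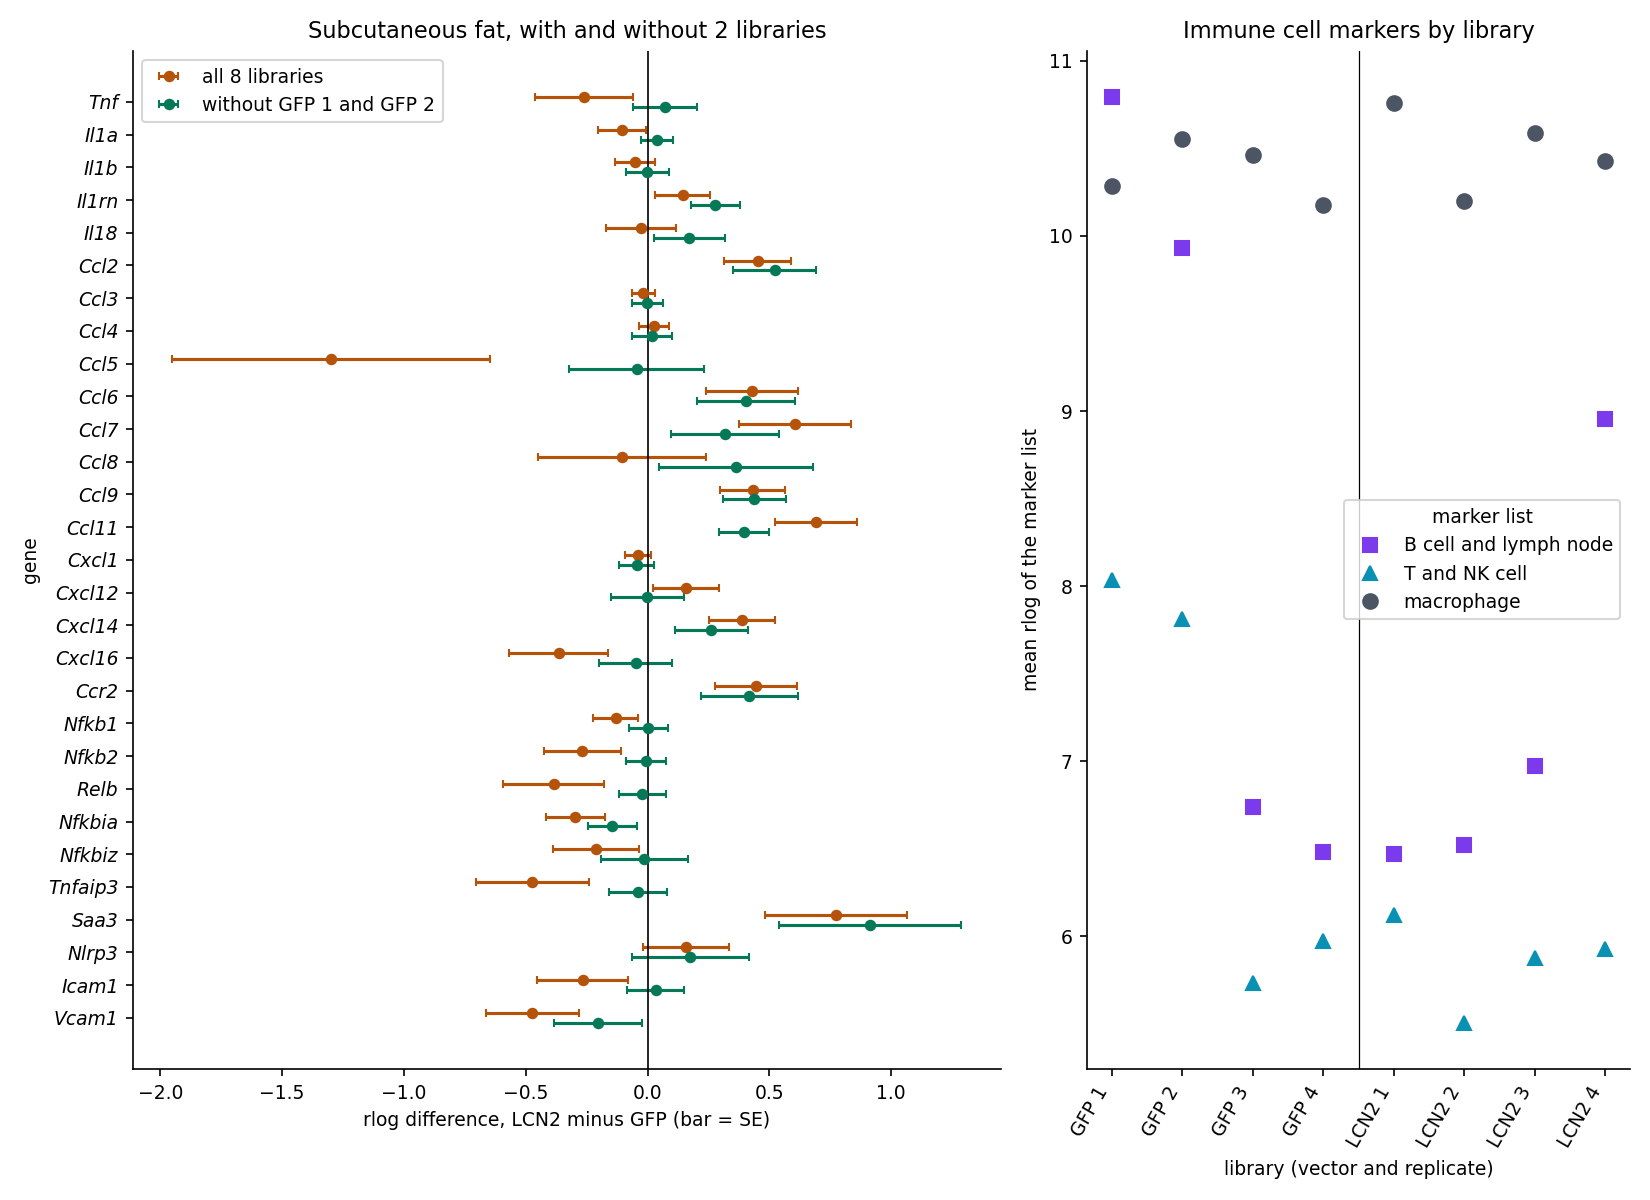
The left panel gives the rlog difference of LCN2 minus GFP and its SE for each tested member in all 8 subcutaneous libraries (orange) and without GFP 1 and GFP 2 (green). The right panel gives the mean rlog of B cell and lymph node, T and NK cell and macrophage markers in each library. Ccl5, Relb and Tnfaip3 move to about 0 without the 2 libraries, while Ccl2, Ccl9, Ccl11 and Saa3 stay right of 0.

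Saa3 in subcutaneous fat had 5.35, 4.98, 5.02 and 4.75 rlog units under GFP and 5.07, 6.21, 6.44 and 5.48 under LCN2, a difference of 0.77 ± 0.29 (SE; limma adjusted p = 0.326). As in gonadal fat, LCN2 1 was the lowest of the LCN2 libraries and the only one within the GFP range. Without GFP 1 and GFP 2 the difference was 0.91 ± 0.37 (SE). Nlrp3 had 5.21 ± 0.06 and 5.36 ± 0.40, and Icam1 9.67 ± 0.40 and 9.41 ± 0.15 rlog units (SD, n = 4), with differences of 0.16 ± 0.18 and -0.27 ± 0.19 (SE). Vcam1 had 10.60, 10.42, 9.81 and 10.13 under GFP and 9.99, 9.64, 9.43 and 9.99 under LCN2, a difference of -0.47 ± 0.19 (SE; limma adjusted p = 0.336). It was -0.20 ± 0.18 (SE) without GFP 1 and GFP 2, the highest libraries for Vcam1.

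Against the subcutaneous background, limma called 0 of 20302 genes (0%) and 0 of 29 members at an adjusted p of 0.05, and the smallest adjusted p of any gene was 0.308. At an unadjusted p of 0.05 it counted 14% of genes and 9 of 29 members (31%). The 7 with higher means under LCN2 were Ccl2, Ccl7, Ccl9, Ccl11, Cxcl14, Ccr2 and Saa3, against a background of 7.81%, and the 2 with lower means were Nfkbia and Vcam1, against 6.24%. Without GFP 1 and GFP 2 the count was 5 of 29 (Il1rn, Ccl2, Ccl9, Ccl11 and Saa3), with 4.53% of genes. Without LCN2 4 as well it was 4 of 29 (Ccl2, Ccl9, Ccl11 and Saa3), with 3.83% of genes. Groups did not overlap for 1 of 29 members (3.45%), Ccl11, which was higher, and for 7.08% of genes (3.81% higher). Of the 29 members 12 (41.4%) had a difference above 0, against 49.8% of genes, and 17 did without GFP 1 and GFP 2. No count test was possible in subcutaneous fat, since rlog values keep no reads.

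In the pathway lists no gene passed the subcutaneous test. Differences above 0 were found for 4 of 12 cytokine receptors (median -0.10), 4 of 12 chemokine receptors (-0.11) and 10 of 22 NF-kB signalling genes (-0.06). They were found for 6 of 15 feedback and inflammasome genes (-0.04) and 7 of 15 further chemokines (-0.03). The smallest p-values belonged to Selp, Tnip3, Nos2 and Ccl21a. Selp, the P-selectin of activated endothelium and platelets, had 7.79 ± 0.29 and 8.30 ± 0.12 rlog units (SD, n = 4), a difference of 0.51 ± 0.14 (SE; limma adjusted p = 0.308), and 14.1% of its exonic bases overlap other annotated genes on the opposite strand. Tnip3, an A20-binding protein, had 5.01 ± 0.04 and 5.32 ± 0.19 (SD, n = 4), a difference of 0.32 ± 0.09 (SE; limma adjusted p = 0.308) without overlap. Groups did not overlap for 7.08% of all genes tested.

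Nos2 had 7.05 ± 0.26 and 7.56 ± 0.26 rlog units (SD, n = 4), a difference of 0.51 ± 0.17 (SE; limma adjusted p = 0.308), on the same side of 0 as in gonadal fat. Ccl21a, a chemokine of lymph nodes and lymphatic vessels, had 11.55, 10.72, 7.86 and 8.77 under GFP and 9.07, 7.18, 7.50 and 7.15 under LCN2, a difference of -2.0 ± 0.82 (SE; limma adjusted p = 0.339). Its highest values were in GFP 1 and GFP 2, the libraries with the highest lymph node markers. Ccl21a has near-identical copies in the mouse genome, so its value is uncertain.

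Set side by side, the differences of the depots were 1.5 (gonadal) and 0.45 (subcutaneous) for Ccl2, 1.27 and 0.60 for Ccl7, 0.22 and 0.69 for Ccl11, 0.72 and 0.44 for Ccr2 and 2.29 and 0.77 for Saa3. These 5 genes were above 0 in both depots, and none passed the limma test in either. Ccl9 was 0.12 in gonadal and 0.43 in subcutaneous fat, and Cxcl14 was 0.13 and 0.39. Vcam1 was -0.24 and -0.47, and Nfkbia -0.20 and -0.30, the first of which was near 0 without gonadal GFP 2. The depots were normalized separately and on different scales, the labels do not say whether the same mice gave both, and the difference between depots was not tested.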

How the data were processed

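RNA libraries of gonadal and subcutaneous fat (4 LCN2 and 4 GFP samples per depot, 16 in all) were made with a stranded mRNA kit from RNA of integrity above 8.2, per the labels' protocols. Reads were handled with HISAT2 and DESeq2 on GRCm38/mm10, per the submitters' processing notes, with versions not given in the sources used here. The deposited gonadal table holds signal values that are read counts divided by 1 size factor per library: 100% of values were whole multiples of a library's step (relative tolerance 1e-06), which gave back the reads. The deposited subcutaneous table holds rlog values on a log2 scale. The mapping of samples follows the column names.

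Each depot was fitted alone with limma 3.58.1 (R 4.3.3; intensity trend, two-sided, Benjamini-Hochberg over all genes tested): gonadal log2(normalized count + 1) for 19536 genes whose mean was 10 or more, and rlog for 20302 genes whose mean was 3 or more. Fold changes of gonadal genes are on the log2(value + 1) scale, where the added 1 shrinks ratios of low values. edgeR 4.0.16 (quasi-likelihood) and DESeq2 1.42.0 on recovered reads were alternatives, with other scalings (library totals, TMM, sample medians), a pseudocount of 5, no filter, a replicate block, and libraries left out. The scripts were tested on simulated data. Identifiers were matched to symbols for 99.2% of rows of each table. Positions and exon lengths come from the GENCODE annotation of GRCm38, promoters from RefSeq (GRCm38.p6). Named with test values are the 6 members of smallest p per depot, genes of the pathway lists with the 4 smallest p per depot, and Lcn2; Ccl5, Tnf, Il1rn, Nlrp3 and other members whose test values are also given were chosen after their values were seen. Members and lists were chosen with earlier results of these data known. Nothing in the labels ties each library to a mouse of its own, so a p-value measures only how these samples spread. Pairs of gonadal libraries differed by at least 45.9 in mean chi-square per gene, far above sampling noise. Intervals from reads cover counting error only.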

Additional observations from a re-analysis of the deposited data

Results flagged for a closer look

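Among 128 groups of 4 libraries (32 genes, 2 vectors, 2 depots), 6 held a library whose gap to the nearest of the others exceeded Dixon's 95% critical value as a share of the group's range. Chance flags about 1 in 20 groups, so this number is near what chance gives. In gonadal fat Cxcl12 was 12275 normalized counts in GFP 4, against 5678 to 6400.0 in the other GFP libraries, and Cxcl1 was 30.1 in LCN2 4, against 26.1 to 26.7. In subcutaneous fat Cxcl12 was again highest in GFP 4 at 13.00 rlog units, against 12.40 to 12.48. Cxcl14 was 10.72 rlog units in subcutaneous LCN2 2, against 11.14 to 11.21, and Relb was 9.04 in LCN2 1, against 9.27 to 9.32. Il10, under the level filter, was 2.53 in GFP 3, against 2.60 in each of the others.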

How the results depend on the processing

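The gonadal count of genes past an adjusted p of 0.05 was 20 with limma, and it was 21 with a pseudocount of 5, 22 with no filter, 13 with TMM scaling, 7 with edgeR, 6 with scaling to library totals and 818 with DESeq2, and leaving out single replicates gave 1 to 66. Without the 2 libraries highest in muscle transcripts by the median of the list (LCN2 4 and GFP 2) it was 0 (1689 at an unadjusted p of 0.05). By summed muscle counts GFP 2, at 3341, lay below LCN2 1 at 6964 and LCN2 2 at 3487. Without the 3 highest in hepatocyte transcripts (GFP 1, LCN2 1 and LCN2 2, by the median of the list) the count of genes was 0 (1622). By summed hepatocyte counts GFP 2, at 204427, and GFP 3, at 118895, lay above all 3 of these. The cause of the lower counts of genes was not tested, and these fits also had fewer samples. Members called were 2 with DESeq2 (Ccl2 and Saa3) and 0 in every other gonadal setting run. The count of members whose groups did not overlap was 2 to 7 of 26 in gonadal fat when single replicates were left out. It was 7 without GFP 4 and 4 without LCN2 4, against 17.9% and 12.5% of all genes. In subcutaneous fat it was 1 to 5 of 29. There it was 5 without GFP 1, GFP 4 or LCN2 2, against 9.22%, 16.2% and 9.16% of genes. Without GFP 3 it was 4, against 16.3%. With all libraries the shares were 9.11% of genes in gonadal and 7.08% in subcutaneous fat, and each library left out raised them. Centred on sample medians, the count was 3 in subcutaneous fat (Ccl2, Ccl9 and Ccl11), against 6.87% of genes. Subcutaneous calls were 0 of genes and of members in every setting run. Since limma called no member, no called direction could reverse. The signs of some members turned between settings: Ccl3 kept its sign in 11 of 17 gonadal and Ccl8 in 9 of 14 subcutaneous ones. Ccl2, Ccl7, Ccl11, Ccr2 and Saa3 kept theirs in all 17 gonadal ones. Over 17 gonadal alternatives the log2 difference ran from 1.16 to 1.81 for Ccl2, 0.81 to 1.68 for Ccl7, 0.19 to 0.27 for Ccl11, 0.54 to 0.95 for Ccr2 and 1.84 to 2.73 for Saa3. Over 14 subcutaneous ones it ran from 0.36 to 0.59 for Ccl2, 0.40 to 0.80 for Ccl11 and 0.56 to 1.02 for Saa3. Leaving out GFP 1, GFP 2 and LCN2 4 was chosen after seeing the data. Depth limits Il6, Il10, Il1a, Il1b, Ccl4 and Cxcl2 in gonadal fat, and it is unknown in subcutaneous fat.

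With the replicate number as a block (replicate block), limma called 0 gonadal genes (2636 at an unadjusted p of 0.05) and 0 members (7 unadjusted), and 0 subcutaneous genes (3200 unadjusted). Same-numbered gonadal libraries had deviations correlated at 0.25, -0.36, 0.42 and 0.02, and subcutaneous ones at -0.11, -0.33, 0.34 and -0.36. Only replicate 3 had its own number as best partner in each depot, so the samples share a number and no pairing was used.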
